A study of Homo sapiens with 7 samples.

Results

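The genes described here encode netrins, Slits, ephrins and their receptors, the secreted and membrane-bound cues that steer growing axons and migrating cells. They were taken by name from a list of 36 genes, with no threshold on measured values, though the list was chosen with earlier results of these data known. Of these, 35 genes were measured by 83 probe sets, out of 19775 genes and 54613 probe sets in all, and EPHB2 was not analysed here. Where several probe sets were annotated to a gene alone, the one with the highest average stands for it.

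The arrays measured RNA of the cell line Panc1, which was established from a human pancreatic carcinoma, harvested before full confluence. The S100P-labelled arm held 4 arrays of cells stably transfected with pcDNA3.1/S100P-V5-His, which carries tagged S100P, a small calcium-binding protein. They came from single-cell clone 5 (arrays 5a and 5b) and single-cell clone 1 (arrays 1a and 1b). The vector arm held 3 arrays of cells transfected with the empty pcDNA3.1/V5-His, from single-cell clone V1 (1 array) and single-cell clone V3 (arrays V3a and V3b). The study sought genes that S100P regulates. Each arm rests on 2 clones, so differences between clones and effects of the construct cannot be told apart beyond the spread over 4 clones. All values are log2 values as deposited, and levels of different probe sets are not compared.

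Array medians lay between 4.51 and 4.58. Arrays of one clone correlated at 0.996 to 0.998 over probe sets, against 0.982 to 0.995 for arrays of different clones. V1, whose pairs are all between clones, correlated with the others at 0.982 to 0.990. The single S100P probe set read 5.36 and 5.45 on clone 5, 5.80 and 5.95 on clone 1, 4.65 on V1, and 5.65 and 6.01 on V3, and was not detectably higher in the S100P-labelled arm (log2 difference 0.27, SE 0.32, limma adjusted p = 0.846). Directions below therefore belong to arrays labelled S100P overexpressing. Of 6 epithelial and ductal markers 5 read above the array median on all arrays, the exception being CDH1, and none of the 3 measured leukocyte markers did. Of 6 neuronal markers 3 did, and the mean over the neuronal markers was 5.01 to 5.11 on S100P-labelled arrays, against 4.65 to 4.82 on vector arrays. The mesenchymal markers read above the median on all arrays in 3 of 4 cases, FN1 being the exception. SYT1, a synaptic vesicle gene among the neuronal markers, read 7.01 to 7.27 on S100P-labelled arrays, against 4.63 on V1, 6.09 on V3a and 6.38 on V3b (limma adjusted p = 0.136). The other 5 neuronal markers differed by -0.04 to 0.22 between the arms, so SYT1 carries the shift of the list. Among the epithelial markers, CDH1 read 7.36 to 7.79 on S100P-labelled arrays, against 3.83 on V1, 6.17 on V3a and 6.36 on V3b (log2 difference 2.23, limma adjusted p = 0.133). The keratin genes KRT8, KRT7 and KRT19 differed by -0.95, -0.87 (limma adjusted p = 0.0667) and -0.63, and none passed the test. The part of the SYT1, CDH1 and keratin differences in the guidance gene results was not tested. Endothelial markers averaged 4.02 to 4.29 on S100P-labelled arrays and 4.10 to 4.14 on vector arrays, and fibroblast markers 4.99 to 5.25 on S100P-labelled arrays and 4.76 to 5.01 on vector arrays.

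Netrins are secreted, laminin-related proteins. DCC and neogenin (NEO1) are receptors known for attraction toward netrin-1, and the UNC5 receptors for repulsion. Slits are secreted repellents that bind ROBO receptors. Ephrins are bound to the membrane, the A class by a lipid anchor and the B class by a transmembrane segment, and signal at cell contacts with the Eph receptor tyrosine kinases. The families also act outside the nervous system, in epithelia and blood vessels.

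Between the arms, the netrin genes on the list, NTN1 and NTN4, fell and the netrin receptor gene UNC5C rose. No Slit, ROBO, ephrin or Eph gene on the list passed the test. Thus 1 of 35 genes was higher and 2 were lower at an adjusted p under 0.05 (limma with clone as a random block), beside 1.03% higher and 0.526% lower among all genes. The median log2 difference was -0.0040 for the 35 genes and -0.00013 for all genes. All S100P-labelled arrays lay above all vector arrays for 3 of 35 genes and below them for 3, beside 8.67% and 5.51% of all genes, so that the counts without overlap were near the background. These counts are read as single genes.

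NTN1 encodes netrin-1, the founding axon guidance netrin, and lies at chr17:9003087-9244000 (GRCh38.p14). It read 4.20 on 5a, 4.41 on 5b, 4.70 on 1a and 4.62 on 1b, against 6.01 on V1, 7.47 on V3a and 7.37 on V3b. Every S100P-labelled array lay below every vector array, the closest pair being 1.31 apart, and V1 lay between the S100P-labelled arrays and V3. S100P-labelled arrays averaged 4.48 ± 0.22 (SD, n = 4), and vector arrays 6.95 ± 0.82 (SD, n = 3). The fitted log2 difference was -2.38 (SE 0.35), a 5.20-fold lower level (limma adjusted p = 0.0196). Arrays 5a and 5b read below their array medians, and without detection calls an exact fold against such dim values is uncertain. Without clone V3, when V1 alone stands for the vector arm, the difference was -1.52 (limma adjusted p = 0.0408). The call was lost without clone 5 (difference -2.33, limma adjusted p = 0.079) or clone 1 (difference -2.79, limma adjusted p = 0.052). The other NTN1 probe sets differed by -0.12 and -0.21 and were not called, so the fall rests on 1 of 3 probe sets.

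NTN4 encodes netrin-4, a basement membrane protein, and lies at chr12:95657807-95791155. Its only probe set read 4.98 on 5a, 4.92 on 5b, and 5.48 on both arrays of clone 1, against 6.21 on V1, 6.49 on V3a and 6.62 on V3b. The arms did not overlap, and clone 5 lay below clone 1. The mean of NTN4 was 5.21 ± 0.31 (SD, n = 4) on S100P-labelled arrays, against 6.44 ± 0.21 (SD, n = 3) on vector arrays. It was 2.31-fold lower, a log2 difference of -1.21 (SE 0.18, limma adjusted p = 0.0202).

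UNC5C, at chr4:95162504-95548973, encodes a netrin receptor with death domain known to mediate repulsion. It read 7.51 on 5a, 7.33 on 5b, 7.62 on 1a and 7.52 on 1b, against 6.04 on V1, 6.26 on V3a and 6.35 on V3b. All S100P-labelled arrays lay above the vector arrays, by 0.983 at the closest, and the clones within an arm lay near each other. The mean of UNC5C was 7.50 ± 0.12 (SD, n = 4) on S100P-labelled arrays, against 6.22 ± 0.16 (SD, n = 3) on vector arrays. It was 2.45-fold higher, a log2 difference of 1.29 (SE 0.12, limma adjusted p = 0.00254).

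A second UNC5C probe set read 7.08 and 6.89 on clone 5, 7.62 and 7.59 on clone 1, 4.68 on V1, and 5.46 and 5.52 on V3. Its log2 difference between the arms was 2.12 (SE 0.26, limma adjusted p = 0.0112), in the same direction. Unlike the first probe set it also differed within arms, by -0.62 for clone 5 minus clone 1 (limma adjusted p = 0.0311) and by -0.81 for V1 minus V3 (limma adjusted p = 0.0141). The difference between the probe sets was not tested. The remaining UNC5C probe sets differed by 0.36, 0.10 and -0.06 between the arms and were not called.

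How firmly these calls hold depends on how the arrays of a clone are counted. With the arrays of each clone averaged first, each arm kept 2 values. Limma then called none of the 3 genes (adjusted p = 0.457 for NTN1, 0.421 for NTN4 and 0.218 for UNC5C). In that fit 6 of the 35 genes had an unadjusted limma p under 0.05, beside 4263 of all 54613 probe sets. The gene count takes the probe set of highest mean for each gene, whereas the other counts every probe set, so these shares are not directly comparable. Leaving out single arrays never lost UNC5C. NTN1 was lost without 5a, 5b, 1b, V3a or V3b, and NTN4 without 5a, 5b, V3a or V3b. Without clone V3, NTN4 differed by -0.997 and was lost as well (limma adjusted p = 0.131). A lower value in a clone may come from fewer expressing cells or from less RNA per cell, which cannot be told apart.

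**Figure D1:**
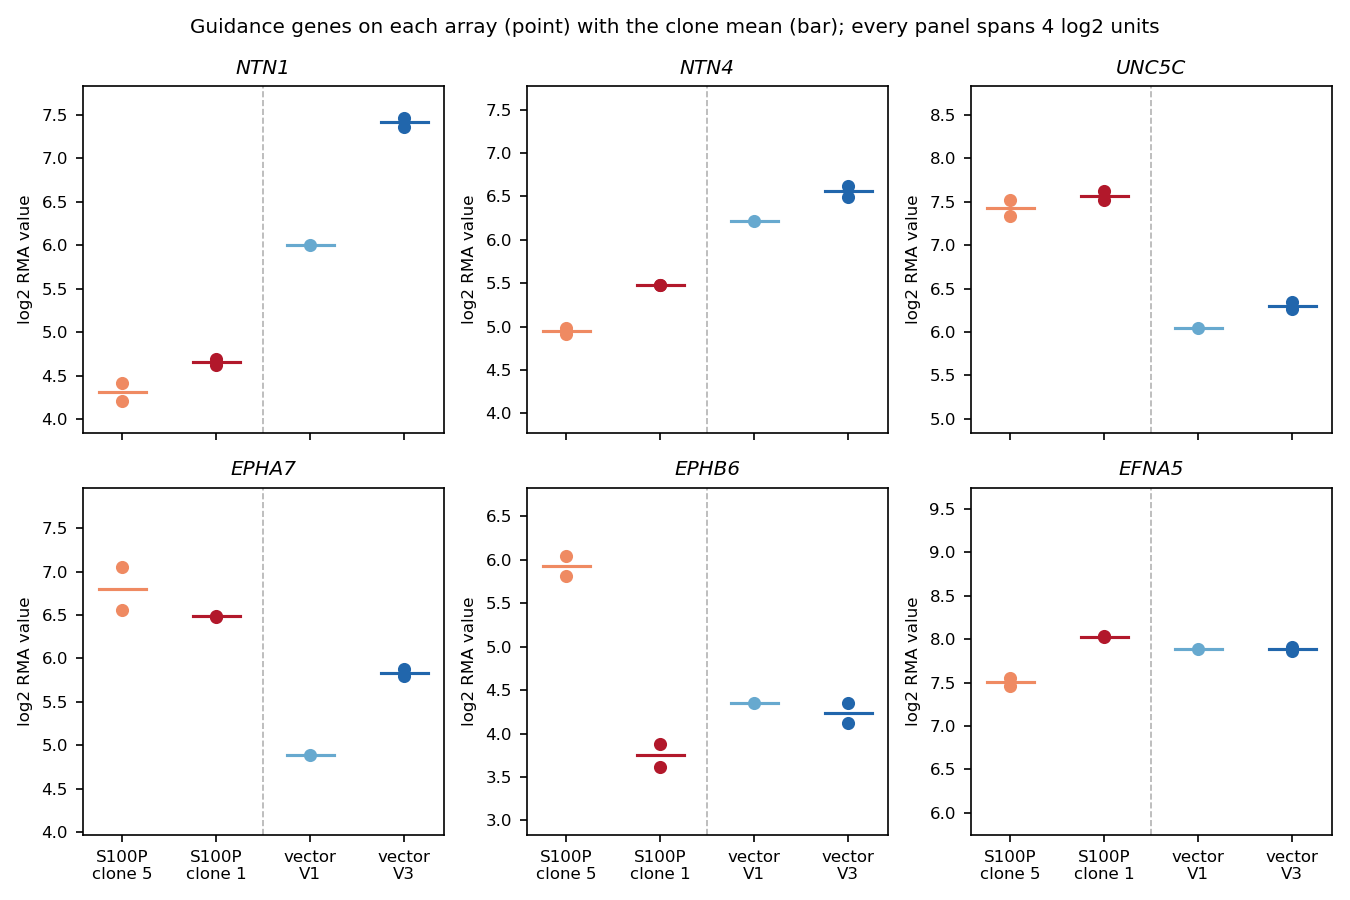
Log2 RMA values of 6 guidance genes on each array (points), with the mean of each clone (bars), for S100P clones 5 and 1 left of the dashed line and vector clones V1 and V3 right of it. NTN1 and NTN4 lie lower and UNC5C higher on all 4 S100P-labelled arrays than on the 3 vector arrays, while EPHB6 and EFNA5 separate clone 5 from clone 1. Every panel spans 4 log2 units.

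The upstream sequences of NTN4 and UNC5C, which moved in opposite directions between the arms, and of EPHB6, which separated the S100P-labelled clones, follow. Each is the 250 bases before an annotated start in RefSeq (GRCh38.p14), and 31 of the 35 genes had such a window. Motifs searched on both strands were the GC box GGGCGG, the TATA box TATAAA and the CCAAT box CCAAT, which do not overlap here, and matches are in capitals. NTN4 is at chr12:95791156-95791405, UNC5C at chr4:95548974-95549223, both on the minus strand, and EPHB6 at chr7:142862506-142862755 on the plus strand.
NTN4: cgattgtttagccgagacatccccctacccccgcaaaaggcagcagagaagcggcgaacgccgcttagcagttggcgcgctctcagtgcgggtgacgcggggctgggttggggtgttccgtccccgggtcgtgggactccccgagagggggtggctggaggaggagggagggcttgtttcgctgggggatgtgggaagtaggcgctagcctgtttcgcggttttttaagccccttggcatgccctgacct
UNC5C: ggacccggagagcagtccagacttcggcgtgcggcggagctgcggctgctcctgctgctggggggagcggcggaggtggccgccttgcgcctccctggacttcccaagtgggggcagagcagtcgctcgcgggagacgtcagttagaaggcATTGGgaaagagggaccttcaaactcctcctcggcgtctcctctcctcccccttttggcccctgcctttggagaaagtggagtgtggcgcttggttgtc
EPHB6: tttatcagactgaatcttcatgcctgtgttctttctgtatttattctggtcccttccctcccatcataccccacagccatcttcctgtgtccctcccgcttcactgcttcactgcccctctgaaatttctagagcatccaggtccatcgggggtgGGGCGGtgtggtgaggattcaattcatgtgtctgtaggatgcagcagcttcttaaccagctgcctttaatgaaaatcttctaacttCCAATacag

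Of all 35116 windows of that length, 42.6% held a GC box, 10.7% a TATA box and 32% a CCAAT box. The UNC5C window held 1 CCAAT box, read on the other strand as ATTGG, and the EPHB6 window held 1 GC box and 1 CCAAT box. The NTN4 window, the most upstream of its 2 annotated windows, held none of the 3 motifs in these letters. CpG dinucleotides numbered 20 in the NTN4 window, 17 in the UNC5C window and 3 in the EPHB6 window, against a median of 11 over all windows. The EPHB6 window lies inside the annotated gene (chr7:142855076-142871093), before a start downstream of the outermost one.

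The other netrin receptors did not pass the test. UNC5B, a receptor also known from blood vessels, read 6.71 and 6.66 on clone 5, 6.55 and 6.69 on clone 1, 6.74 on V1, and 6.67 and 6.45 on V3, with overlapping arms (log2 difference 0.02). DCC, UNC5A and UNC5D read below the array median on all 7 arrays. NEO1 differed by -0.12 between the arms (SE 0.10, limma adjusted p = 0.745).

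**Figure D2:**
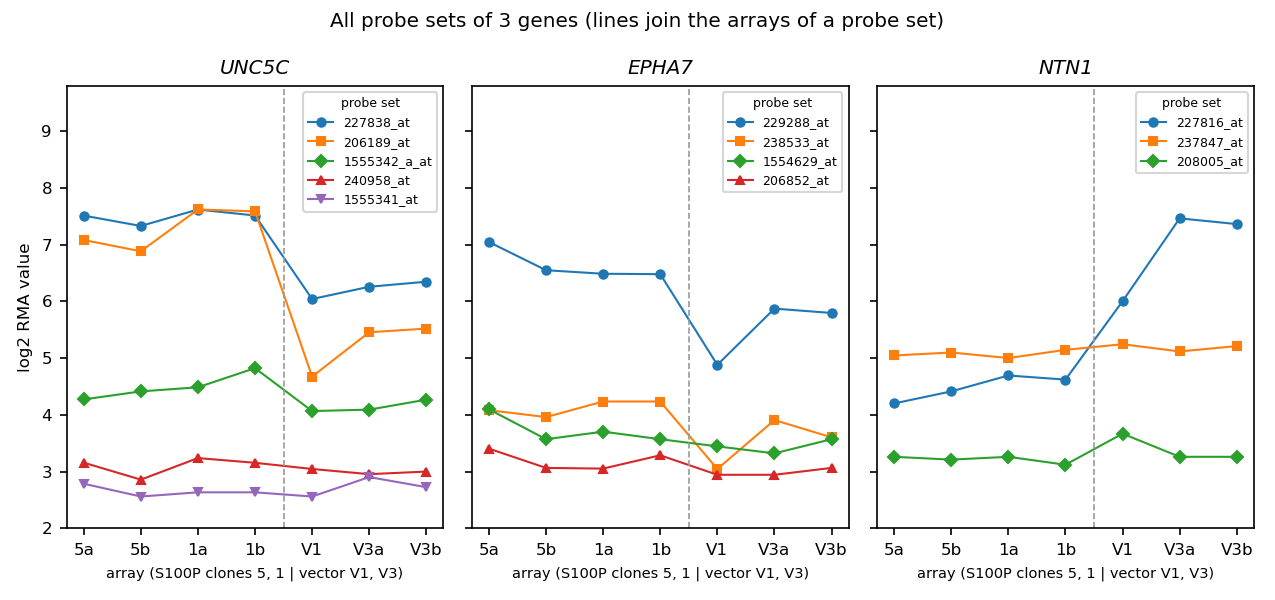
Log2 RMA values of every probe set of UNC5C, EPHA7 and NTN1 on the arrays of S100P clones 5 and 1 (left of the dashed line) and of vector clones V1 and V3 (right of it). The UNC5C probe sets at the top lie higher on S100P-labelled arrays, while a single NTN1 probe set carries its difference.

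No Slit or ROBO gene was called between the arms. SLIT3 read 5.64 and 5.69 on clone 5, 6.07 and 5.94 on clone 1, 5.82 on V1, and 5.22 and 5.48 on V3, where the V1 value fell within the range of the S100P-labelled arrays. Its log2 difference was 0.30 (SE 0.17, limma adjusted p = 0.568). ROBO1, the widely expressed Slit receptor, read 8.72 and 8.64 on clone 5, 8.54 and 8.38 on clone 1, 7.85 on V1, and 8.52 and 8.79 on V3, so that V1 stood below the other arrays. ROBO3 was the most uneven of the family within a clone, at 5.33 on 5a and 6.27 on 5b, with 6.15 and 6.41 on clone 1, 5.43 on V1, and 5.96 and 6.10 on V3. SLIT2 and ROBO2 read below the array median on all arrays.

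Among the ephrin-A ligands none of 5 was called between the arms. Positive differences were found for 4 of 5, namely EFNA1, EFNA2, EFNA3 and EFNA4, beside 9880 of all 19775 genes. V1 was the lowest array in each of those 4. Across settings EFNA2 ranged from -0.06 to 0.91 and EFNA4 from 0.04 to 0.73. EFNA1, a ligand of EphA2, read 6.84 and 6.97 on clone 5, 7.58 and 7.36 on clone 1, 6.27 on V1, and 6.75 and 6.92 on V3. Clone 1 was high and V1 low, and clone 5 overlapped V3. The log2 difference was 0.57 (SE 0.22, limma adjusted p = 0.350). EFNA3 read 6.99 and 6.70 on clone 5, 6.73 and 6.95 on clone 1, 6.41 on V1, and 6.50 and 6.62 on V3, with the arms apart by 0.079 at the closest. Its log2 difference was 0.34 (SE 0.12, limma adjusted p = 0.318).

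Of the 3 ephrin-B ligands, EFNB2, a ligand of EphB4 in vessels, read 5.26 and 5.28 on clone 5, 5.32 and 5.21 on clone 1, 6.14 on V1, and 5.42 and 5.90 on V3. All S100P-labelled arrays were lower, by 0.102 at the closest, and lay close together while the vector arrays spread widely. The log2 difference was -0.58 (SE 0.18, limma adjusted p = 0.220), and it was -0.87 without clone V3 (limma adjusted p = 0.0262). That fit sets the 4 S100P-labelled arrays against V1, the highest array, whose spread is taken to be that within the S100P-labelled arm. The other EFNB2 probe set overlapped between the arms, with a log2 difference of -0.37.

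EPHA7, a receptor for ephrin-A ligands at chr6:93240020-93419559, read 7.05 on 5a, 6.55 on 5b, 6.49 on 1a and 6.48 on 1b, against 4.88 on V1, 5.87 on V3a and 5.80 on V3b. The arms did not overlap, with a gap of 0.608, and V1 stood below V3. EPHA7 averaged 6.64 ± 0.27 (SD, n = 4) on S100P-labelled arrays, against 5.52 ± 0.55 (SD, n = 3) on vector arrays. The log2 difference of 1.18 (SE 0.27) missed the threshold (limma adjusted p = 0.0986). Without clone V3 it was 1.76 and called (limma adjusted p = 0.0474), a fit in which V1 alone stands for the vector arm. Another EPHA7 probe set was also without overlap, by 0.053 at the closest, with a log2 difference of 0.65 (limma adjusted p = 0.227). It read below the array median on all 7 arrays. The remaining EPHA7 probe sets overlapped between the arms, with log2 differences of 0.29 and 0.22, and were not called.

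EPHA2, an epithelial Eph receptor often abundant in carcinoma cells, read 10.55 and 10.60 on clone 5, 10.74 and 10.73 on clone 1, 10.60 on V1, and 10.45 and 10.59 on V3. The arms overlapped, and the log2 difference was 0.11 (SE 0.09, limma adjusted p = 0.771). EPHB4, the receptor of ephrin-B2, read 9.12 and 9.22 on clone 5, 9.04 and 9.04 on clone 1, 9.09 on V1, and 9.26 and 9.46 on V3, with overlap and a log2 difference of -0.15 (SE 0.12, limma adjusted p = 0.731).

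EPHB3, a receptor known from intestinal crypts, read 5.81 and 5.75 on clone 5, 5.57 and 5.75 on clone 1, 5.58 on V1, and 6.21 and 5.99 on V3. EPHA1 read 4.92 and 5.16 on clone 5, 5.05 and 4.92 on clone 1, 5.33 on V1, and 4.92 and 4.68 on V3. Both overlapped between the arms. The 16 remaining genes among those uncalled in every contrast, NEO1 included, had log2 differences between the arms of -0.22 to 0.07 (limma adjusted p from 0.691 to 0.994). Among all 35 genes, 8 read below the array median on every array, namely EPHA3, EPHA5, EPHA6, DCC, UNC5A, UNC5D, ROBO2 and SLIT2.

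**Figure D3:**
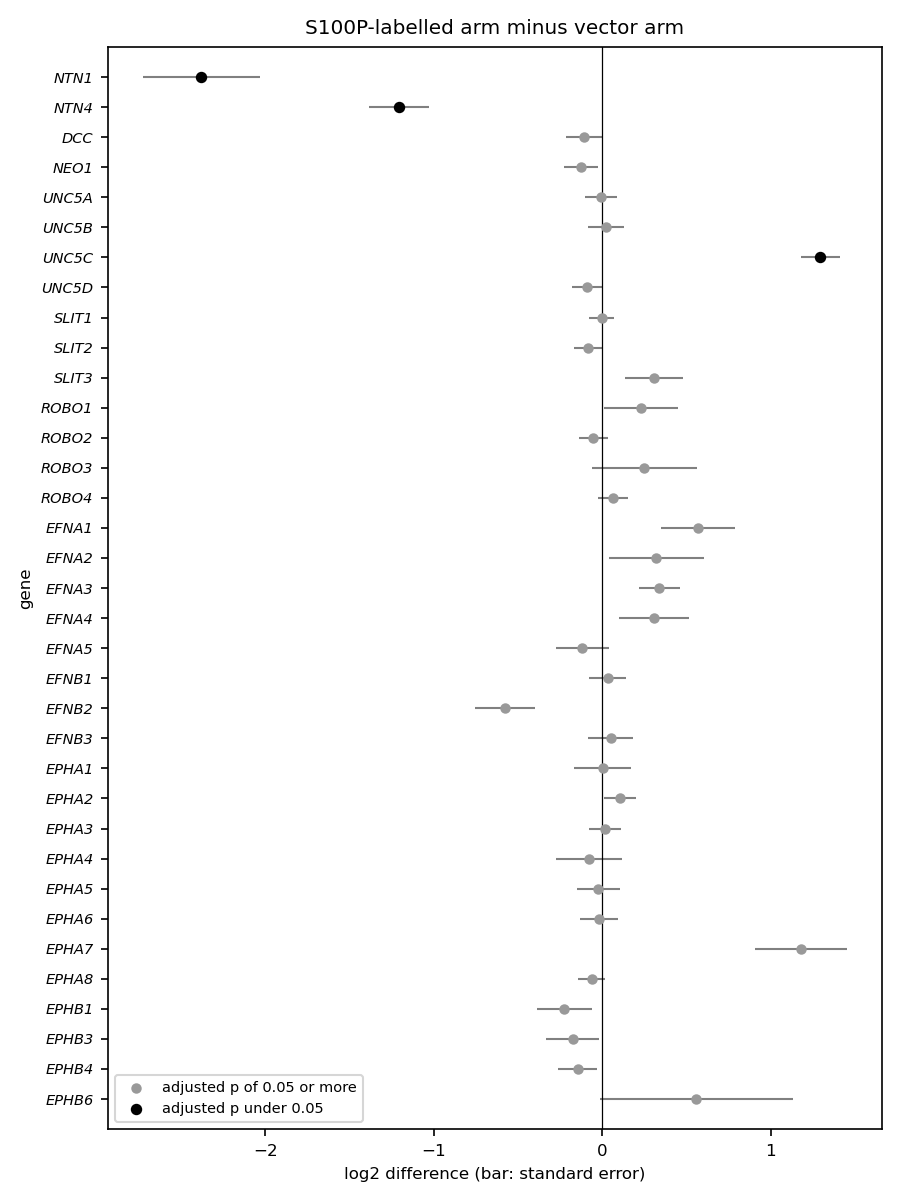
Fitted log2 difference of the S100P-labelled arm minus the vector arm for the 35 genes (points) with its standard error (bars), ordered by role from netrins at the top to EphB receptors at the bottom. NTN1 at -2.38, NTN4 at -1.21 and UNC5C at 1.29 are the points with an adjusted p under 0.05 (black), and EPHA7 at 1.18 is not.

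The S100P-labelled clones differed from each other in 3 of the 35 genes, tested with limma on all 4 clones as separate groups, where the spread is that between arrays of a clone. Clone 5 was higher in 1 gene, beside 0.673% of all genes, and lower in 2, beside 2.35% of all genes. The median log2 difference was 0.04 for the 35 genes and 0.02 for all genes.

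EPHB6, an Eph receptor that lacks kinase activity, read 6.04 on 5a and 5.82 on 5b, against 3.62 on 1a and 3.88 on 1b. The vector arrays lay between the clones, at 4.35 on V1, 4.35 on V3a and 4.12 on V3b. EPHB6 was 4.54-fold higher in clone 5 than in clone 1, a log2 difference of 2.18 (SE 0.14, limma adjusted p = 0.00115). Clone 1 and the vector arrays read below their array medians, so the exact fold is uncertain. Set against the vector clones, which both comparisons share, it differed by 1.64 in clone 5 and by -0.55 in clone 1. Its difference between the arms was therefore uneven, at 0.56 (SE 0.57, limma adjusted p = 0.816), and it was 1.67 without clone 1 (limma adjusted p = 0.00549) and -0.52 without clone 5.

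EFNA5, a ligand of EphA receptors at chr5:107376894-107670937, read 7.46 and 7.56 on clone 5, against 8.03 and 8.03 on clone 1. V1 at 7.89 and V3 at 7.87 and 7.91 lay nearer to clone 1. The log2 difference of clone 5 minus clone 1 was -0.52 (SE 0.09, limma adjusted p = 0.0355), and the other EFNA5 probe sets differed by -0.32, -0.21 and 0.05, uncalled. NTN4 was lower in clone 5 by the values given above (log2 difference -0.53, SE 0.09, limma adjusted p = 0.0394). Left without any 1 array of clones 5, 1 or V3, limma called none of EPHB6, EFNA5 and NTN4. No probe set of the whole array was called in those fits either.

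**Figure D4:**
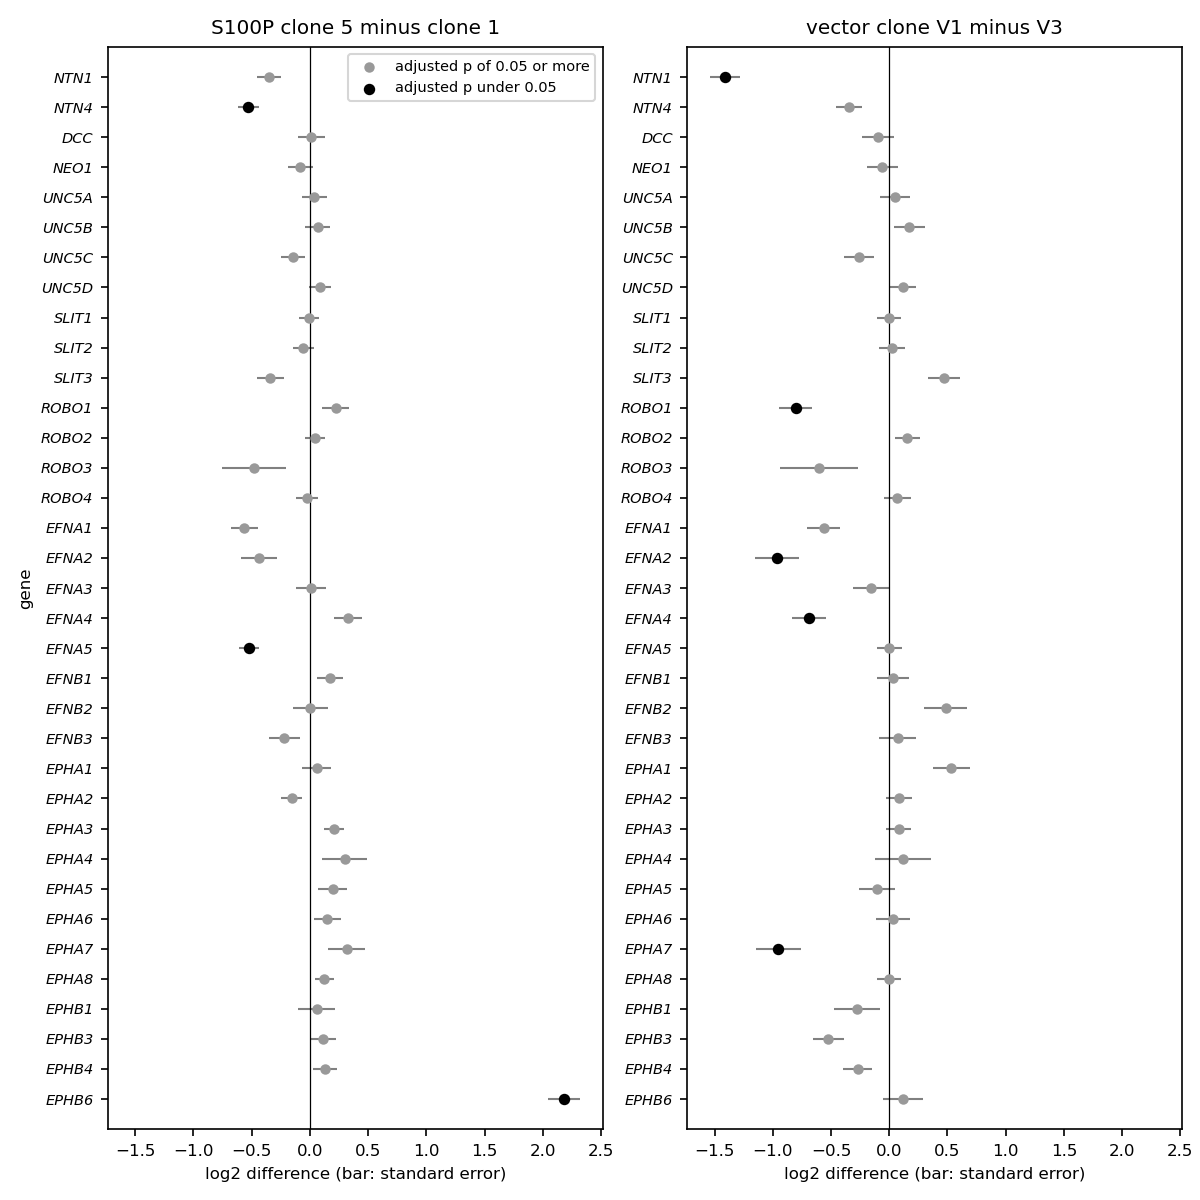
Fitted log2 differences of the 35 genes (points) with standard errors (bars) for S100P clone 5 minus clone 1 (left) and vector clone V1 minus V3 (right), with adjusted p under 0.05 in black. EPHB6 stands at 2.18 on the left, and on the right the called genes, with NTN1 at -1.41, all lie below 0.

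The vector clones differed in 5 of the 35 genes, and all 5 were lower in V1. No gene was higher, beside 2.64% of all genes, and the 5 lower stand beside 5.08% of all genes. The median log2 difference was 0 for the 35 genes and 0.02 for all genes. V1 has 1 array, is taken to vary like the other clones, and carries a different prefix in its label, so that clone and handling cannot be told apart.

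NTN1 showed the largest of these differences, with V1 minus V3 at -1.41 (SE 0.13, limma adjusted p = 0.00289). EPHA7 was lower in V1 by the values given above (log2 difference -0.95, SE 0.19, limma adjusted p = 0.0356). EFNA2, an ephrin-A ligand, read 5.70 on V1, against 6.57 and 6.74 on V3, with 6.19 and 6.57 on clone 5 and 6.70 and 6.95 on clone 1, so V1 was the lowest array. Its difference was -0.96 (SE 0.19, limma adjusted p = 0.0321), and its other probe sets differed by -0.01 and 0.14. EFNA4, another ephrin-A ligand, read 5.72 on V1, against 6.48 and 6.35 on V3, with 6.75 and 6.47 on clone 5 and 6.25 and 6.32 on clone 1. It differed by -0.69 (SE 0.15, limma adjusted p = 0.0403), and ROBO1 by -0.80 (SE 0.14, limma adjusted p = 0.0249). The calls fell to none without 1a, 1b, V3a or V3b and to 2 without 5a or 5b. Over all probe sets these fits called 0 and 909, against 3195 with all arrays.

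**Figure D5:**
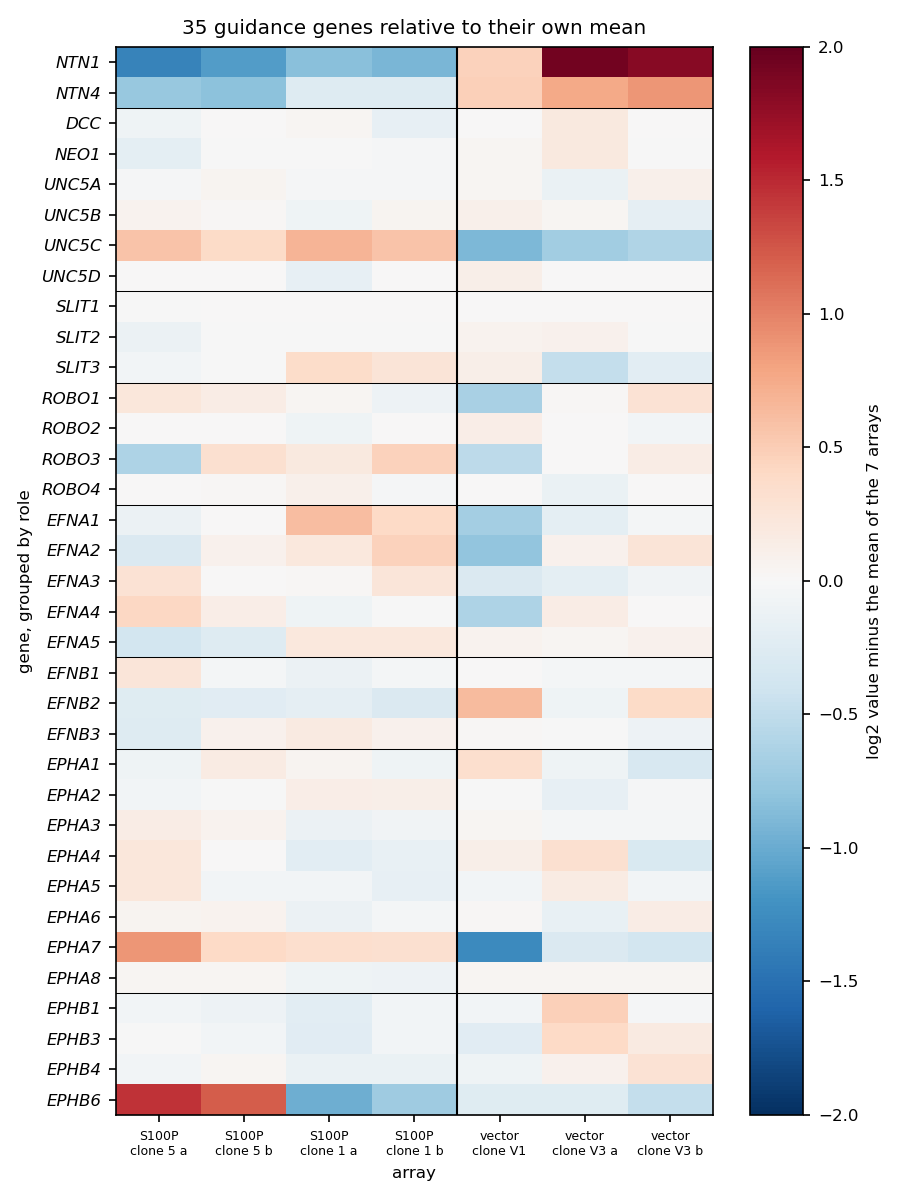
Log2 values of the 35 genes (rows, grouped by role) on the arrays of S100P clones 5 and 1 and vector clones V1 and V3 (columns), each minus the mean of its gene over the 7 arrays. The vertical line parts the arms. NTN1 and NTN4 are below their mean left of the line, UNC5C and EPHA7 above it, and EPHB6 is above it on clone 5 only among the 4 clones.

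Further genes of these pathways were taken from 2 lists. These too were chosen with earlier results of these data known, so their counts beside all genes are descriptive. Of 11 ligands, coreceptors and relatives outside the cell, all measured, limma called none between the arms. An unadjusted limma p under 0.05 was reached by 1 of them, beside 2977 of all 19775 genes. The netrin genes NTN3 and NTN5 on this list differed by -0.11 and 0.11 (limma adjusted p = 0.862 for both). FLRT2, which binds the netrin receptor UNC5D, was lower in V1 than in V3 (log2 difference -1.31, limma adjusted p = 0.00402). Its other probe sets differed by -0.13 and 0.02 and were not called. Of 36 proteins inside the cell that act with these receptors 34 were measured, and between the arms 1 was higher and 2 were lower, beside the 1.03% and 0.526% of all genes. The median log2 difference was 0.03 on both lists.

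CHN1, a Rac-inactivating chimaerin that acts downstream of EphA4 in mice, read 7.18 and 7.18 on clone 5, 7.78 and 7.54 on clone 1, 9.57 on V1, and 9.54 and 9.71 on V3. The arms lay far apart, and the vector clones lay close together. CHN1 was 4.53-fold lower in the S100P-labelled arm (log2 difference -2.18, SE 0.16, limma adjusted p = 0.000957). TIAM1, a Rac activator that binds ephrin-B and EphA2, read 3.62 and 3.69 on clone 5, 3.19 and 3.91 on clone 1, 6.13 on V1, and 6.48 and 6.98 on V3, again without overlap (log2 difference -2.89, SE 0.27, limma adjusted p = 0.0028). The S100P-labelled arrays read below their array medians there, so the size of the TIAM1 difference is uncertain. PTPN13, a phosphatase that binds ephrin-B tails, read 5.70 and 5.91 on clone 5, 6.21 and 6.14 on clone 1, 4.50 on V1, and 5.10 and 4.84 on V3. It was 2.30-fold higher in the S100P-labelled arm (log2 difference 1.20, SE 0.18, limma adjusted p = 0.0233), and its other probe set was not called (log2 difference 0.44). With arrays averaged by clone none of CHN1, TIAM1 and PTPN13 was called (limma adjusted p from 0.189 to 0.382). PTPN13 was also lost without 1a, 1b, 5b, V3a or V3b, and without clone 1 (log2 difference 0.94, limma adjusted p = 0.0684).

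Between the S100P-labelled clones, ABL2, an Abl-family kinase known to act with Robo and Eph receptors, was lower in clone 5. It read 8.54 and 8.54 on clone 5, against 10.02 and 10.02 on clone 1, and the log2 difference of -1.48 (limma adjusted p = 0.00115) was joined by calls on its other probe sets, at -1.07 and -1.42. The adaptor gene NCK1 was also lower in clone 5 (log2 difference -0.58, limma adjusted p = 0.0408). The remaining NCK1 probe sets were not called, at -0.56, -0.27 and -0.55. SRGAP2, a Slit-Robo GTPase-activating protein with near-identical copies in the genome, was higher by 0.63 (limma adjusted p = 0.0497). All of ABL2, NCK1 and SRGAP2 were lost without any 1 array of clones 5, 1 or V3, in fits that called 0 of all probe sets. Between the vector clones, the kinase gene FYN was lower in V1 by a log2 difference of -2.50 (limma adjusted p = 0.00107), with 1 other of its probe sets called at -0.75. The remaining FYN probe sets were not called, at -0.30, -0.16 and -0.22. FYN read 3.96 on V1, below the array median, so the size of its difference is uncertain. MAGED1, a partner of UNC5 receptors, was lower in V1 (log2 difference -0.63, limma adjusted p = 0.0201) and SRGAP1 higher (0.60, limma adjusted p = 0.039). Another SRGAP1 probe set was called at 0.82 (limma adjusted p = 0.00832). The most variable SRGAP1 probe set was not called (log2 difference 0.40, limma adjusted p = 0.576), nor were the remaining ones, at 0.66, 0.05 and -0.12. The calls of FLRT2, FYN, MAGED1 and SRGAP1 were lost without 1a, 1b, V3a or V3b, and those of MAGED1 and SRGAP1 also without 5a or 5b.

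Among 1978 genes with a range of at least 1 over the arrays, those most like NTN1 by Pearson correlation over 7 arrays of 4 clones were IFITM1 (0.989), PPP1R9A (0.986), EXPH5 (0.986), SGCE (0.985) and ART5 (0.985). IFITM1 read 6.04 and 6.60 on clone 5, 6.23 and 6.37 on clone 1, 9.78 on V1, and 11.73 and 11.68 on V3, so that it shared the order of S100P-labelled arrays, V1 and V3. Those most like EPHB6 were AGAP4 (0.943), COL5A2 (0.935), IGFBP6 (0.925), HSPA6 (0.917) and PTCHD1 (0.910), of which COL5A2 read 7.99 and 8.15 on clone 5, 6.27 and 6.05 on clone 1, 6.33 on V1, and 6.81 and 6.97 on V3. These correlations describe arrays that share 4 clones, and arrays of a clone are not independent.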

How the data were processed

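Panc1 clones were measured on 7 arrays. The deposited log2 values had been made by the authors with RMA, per the submitters' processing notes. The table does not state its scale, which was taken as log2 from its range, and no RMA version is given in the sources used here. No detection calls were used, and precision is limited by how many arrays there are. After 62 control probe sets were removed, 54613 were fitted in R 4.3.3 (limma 3.58.1, statmod 1.5.0). The arms were compared with clone as a random block (consensus correlation 0.287). Clones were compared in a second fit with 4 clones as fixed effects and 3 residual degrees of freedom. The two-sided p-values were adjusted by Benjamini-Hochberg over all probe sets, at a threshold of 0.05. The fits were tested on simulated data for the size of added differences, not for the rate of false calls. The correlation weights the arrays and is a single value for all probe sets, so adjusted p-values may be too small for genes that differ between clones of an arm. The labels do not say that arrays a and b are separate cultures, and p-values then reflect only how far these samples spread, which may be technical. No probe set was named from several symbols. All genes on the list are reported, with every array given for those called in a contrast, for the 6 uncalled of highest mean and for the 6 uncalled of largest range over clone means. Up to 5 called genes of each partner list and the 5 genes most like NTN1 and EPHB6 were named. Alternatives were no clone block, clone averages, quantile normalization, a mean of at least 5, a mean-variance trend, the most variable probe set, and leaving out each array or clone. Members and lists were chosen with earlier results of these data known. Figures used matplotlib 3.10.9.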

Additional observations from a re-analysis of the deposited data

Results flagged for a closer look

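Among the 35 genes, 7 had 1 array far from the other S100P-labelled arrays relative to their range. Chance marks about 1 in 20 groups of 4 independent, untied values. The arrays come in pairs from 2 clones and some values are tied, so that rate need not hold here. The share over all genes is not given, and the count is not read as a result about these genes. EPHA7 read 7.05 on 5a, above the others. NEO1 read 4.24 on 5a, UNC5D 2.89 on 1a, ROBO2 2.96 on 1a, SLIT1 4.93 on 5a and SLIT2 3.35 on 5a, below the others, and UNC5A read 3.999 on 5b, above them. For UNC5D, ROBO2, SLIT1 and SLIT2 the other 3 S100P-labelled arrays held the same value, so that any departure is marked. Clone 5 and clone 1, which have the same label for their construct, differed in 3 genes by the test of the difference itself, with clone 5 minus clone 1 at 2.18 for EPHB6, -0.53 for NTN4 and -0.52 for EFNA5 on the log2 scale.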

How the results depend on the processing

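Across 16 other settings of the comparison of arms, no called gene reversed. UNC5C was called in 15 (log2 differences 1.18 to 2.12), NTN4 in 10 (-1.53 to -0.97) and NTN1 in 8 (-2.93 to -1.52). For NTN1 and NTN4 the most variable probe set is the one already used, so that setting repeats the main fit. Apart from it, NTN1 was called in 7 of 15 settings and NTN4 in 9 of 15. The count of 3 called between the arms was 0 with arrays of each clone averaged first, where 8 of all probe sets were called and 4263 had an unadjusted p under 0.05, and 1 to 3 when single arrays were left out. Without clone 1 the count was 3, of which 2 were kept, as NTN1 was lost and EPHB6 was added. Without clone 5 it was 2, as NTN1 was lost. Without clone V3, when V1 alone stands for the vector arm, NTN1, NTN4 and UNC5C differed by -1.52, -0.997 and 1.45. The count of 3 between clone 5 and clone 1 was 0 to 3 when single arrays were left out, with 0 of all probe sets called and 4468 to 11537 at an unadjusted limma p under 0.05 where it was 0. The count of 5 between V1 and V3 was 8 among probe sets of mean 5 or more, where SLIT3, EPHB3 and EFNA1 were added. Of the 35 genes 20 reached that mean, and the filtered fit called 5053 of all its probe sets, against 3195 unfiltered. The count was 0 to 2 when single arrays were left out. EPHB6, with a mean of 4.60, was not tested under that filter. Over all probe sets, 611 were called between the arms, against 159 without V3a, 1708 without V1 and 1103 with no clone block. Dim probe sets can understate differences. No paired analysis was possible because the array labels number clones, not pairs across the arms.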
